A study of Mus musculus with 4 samples.

Results

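The cells described here are the progenitors with the lymphoid gene Dntt among mouse KLS cells, which are bone marrow cells that lack the surface markers of mature lineages and carry c-Kit and Sca-1. A cell was a member when it held at least 3 Dntt UMIs (unique molecular identifiers, each counting 1 captured transcript) and 0 Pf4 UMIs. Only cells with at least 500 genes, at most 10% mitochondrial UMIs and a barcode absent from the study's 2 stromal libraries could enter. The rule gave 3355 members of 10351 eligible KLS cells, out of 12355 barcodes in the 4 libraries of the series. Because Dntt and Pf4 chose the members, their levels are given as a description only.

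The study compared blood cells that lack the transcription factors STAT5A and STAT5B with blood cells that keep them, in single-cell 3' RNA libraries. In the STAT5 KO library the donor mice were Vav1-Cre/+ STAT5ab fl/fl, and in the control library they were Vav1-Cre/+ STAT5ab+/+. Both groups thus carried Vav1-Cre, a recombinase driven in blood cells from their origin on. The deletion was therefore aimed at all blood lineages and not at lymphoid cells alone. The Stat5a and Stat5b transcripts that remained in each set of cells are given below. Marrow came from the femurs and tibias of 4 mice aged 8 to 12 weeks, and the labels do not say whether that number is for each genotype or for both, with 3000 to 6000 cells targeted per library. The files do not separate single mice. A sample of sorted stromal cells (MSC) of each genotype, from mice of 6 to 8 weeks, served here for the barcode condition and for 1 closing observation.

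Each genotype was 1 KLS library with no replicate. No difference below therefore has a test or a replicate spread, and genotype cannot be told apart from mice, sort and library. The intervals are 95% intervals and cover counting error only. A difference is called when a gene's level in counts per 1000000 UMIs (CPM) differed at least 1.5-fold (0.58 on the log2 scale, with 10 CPM added to both levels), and "rose" and "fell" are used only of called genes. Of the 31053 genes in the files, 11545 had at least 50 UMIs over the members of both libraries and were compared.

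Lymphoid priming is the step at which a multipotent progenitor begins to transcribe lymphoid genes before it has chosen the B, T or innate lymphoid path. The receptor tyrosine kinase FLT3 marks such progenitors, and the interleukin-7 receptor (Il7r, with the shared chain Il2rg) carries the later signal for lymphoid growth through JAK1, JAK3 and STAT5. Dntt encodes terminal transferase, which adds bases without a template at the joints of rearranging antigen receptor genes, and RAG1 and RAG2 cut those genes. Satb1 encodes a chromatin organiser of lymphoid progenitors, and transcripts of the unrearranged Ighm locus appear before the locus is joined. E proteins such as E2A, made from Tcf3, open lymphoid genes by binding short E-box sequences, CANNTG.

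Dntt, Rag2 and Flt3, whose levels moved together along the members, as described further on, have their RefSeq upstream windows here (GRCm38.p6), as the 250 bases before the annotated start, 5' to 3' on the gene's strand. Capitals mark each CANNTG. The Dntt window is chr19:41029025-41029274 on the + strand, with 3 matches. The Rag2 window is chr2:101624462-101624711 on the + strand, with 1 match. The Flt3 window is chr5:147400490-147400739 on the - strand, with 1 match.
Dntt: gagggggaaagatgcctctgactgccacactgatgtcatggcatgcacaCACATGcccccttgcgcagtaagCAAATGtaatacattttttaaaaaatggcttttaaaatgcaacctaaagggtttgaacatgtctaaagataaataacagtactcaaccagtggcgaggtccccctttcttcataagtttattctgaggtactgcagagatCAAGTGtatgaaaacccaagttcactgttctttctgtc
Rag2: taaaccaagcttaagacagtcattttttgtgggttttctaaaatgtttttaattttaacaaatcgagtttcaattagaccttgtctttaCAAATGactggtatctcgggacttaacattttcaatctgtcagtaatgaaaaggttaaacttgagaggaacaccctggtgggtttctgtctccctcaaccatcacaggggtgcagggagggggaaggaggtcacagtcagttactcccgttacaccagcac
Flt3: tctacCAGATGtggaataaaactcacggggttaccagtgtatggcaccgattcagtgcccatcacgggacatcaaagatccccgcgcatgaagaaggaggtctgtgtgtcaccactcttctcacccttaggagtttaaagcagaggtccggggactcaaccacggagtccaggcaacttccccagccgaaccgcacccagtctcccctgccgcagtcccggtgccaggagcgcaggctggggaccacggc
Of 32851 RefSeq windows of this length, 66.2% held a CANNTG, which reads the same on both strands, so a match is common. The letters of a STAT site, TTCNNNGAA, which also read the same on both strands, stood in 7.02% of the windows and in none of these 3. The window of Il7r, chr15:9529877-9530126 on the - strand, overlaps an annotated exon and is not shown. It held 3 CANNTG matches and 1 STAT match, TTCAGGGAA at chr15:9530010-9530018, whose nearest base lies 134 bases before the RefSeq start. These libraries count the 3' ends of transcripts, so no value below measures any of these windows.

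Members made up 31.3% of the eligible KLS cells in the control library (999 of 3193, Clopper-Pearson interval 29.7% to 32.9%) and 32.9% in the STAT5 KO library (2356 of 7158, 31.8% to 34.0%). The share was 1.63 percentage points higher in STAT5 KO, with an interval of -0.33 to 3.55 by Newcombe's method, so the interval held 0. A Dntt minimum of 5 UMIs turned the difference to -0.53 points, a mitochondrial limit of 5% turned it to -0.52, and a minimum of 2 Dntt UMIs raised it to 3.65. Cells of the control library were deeper: the median member held 17659 UMIs and 4591 genes in the control and 11759.5 UMIs and 3734.5 genes in STAT5 KO. With each cell thinned to 4500 UMIs before the rule was applied, members were 20.4% (19.0% to 21.8%) of 3169 control cells and 23.8% (22.7% to 24.8%) of 6498 STAT5 KO cells, with 24 and 660 shallower cells left out. At equal depth the intervals did not overlap and the STAT5 KO share was higher, while the direction without thinning turned with the settings above.

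Within the members, which Dntt itself chose, the median Dntt level per UMI was much alike in both libraries. The median member held 13 Dntt UMIs in the control (quartiles 6 and 31, highest 192) and 9 in STAT5 KO (quartiles 5 and 20, highest 163). Per 10000 UMIs of the cell the medians were 8.70 and 8.75. The summed level was 1313 CPM in control members and 1167 CPM in STAT5 KO members. The minimum cut the libraries at unlike levels: members with exactly 3 Dntt UMIs stood at 158 CPM in the control and 254 CPM in STAT5 KO. How far this shaped the medians was not tested. The plot of Dntt UMIs per cell shows no gap between members and the cells below the minimum.

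**Figure D1:**
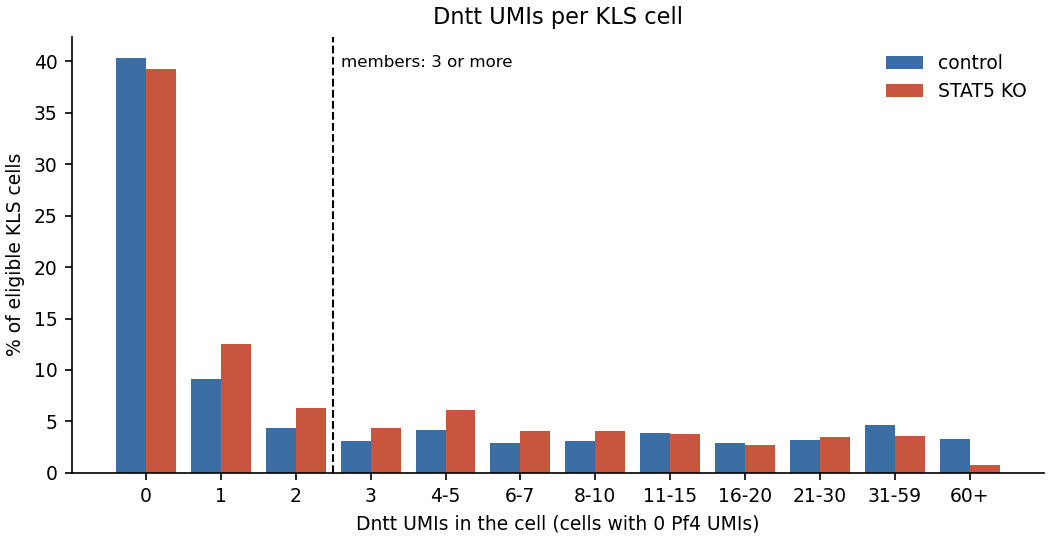
Share of eligible KLS cells (y axis, percent) by their number of Dntt UMIs (x axis, classes of unequal width, cells with 0 Pf4 UMIs only), with 1 bar per library and a dashed line at the rule's minimum of 3. Shares fall without a gap across the line in both libraries, from 138 control and 454 STAT5 KO cells with exactly 2 Dntt UMIs to 100 and 310 with exactly 3.

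Cells just inside the minimum held exactly 3 Dntt UMIs, and cells just outside it held exactly 2. Flt3 stood at 193 CPM inside and 188 CPM outside in the control, and at 161 and 163 CPM in STAT5 KO. Satb1 stood at 224 and 197 CPM in the control and at 184 and 173.5 CPM in STAT5 KO. The stem cell factor Hlf stood at 246 CPM inside and 283 CPM outside in the control, and at 191 and 190.2 CPM in STAT5 KO. Mki67, a proliferation marker, stood further apart in the control, at 261 CPM inside and 366 CPM outside, and at 393 and 376 CPM in STAT5 KO. No clustering was run, so whether members form a cluster of their own was not tested.

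Free RNA and multiplets can put Dntt UMIs into cells of other types. Among eligible cells with at least 10 Pf4 UMIs, a platelet chemokine of megakaryocytes, 5 of 35 (14.3%, 4.81% to 30.3%) held 3 or more Dntt UMIs in the control and 12 of 102 (11.8%, 6.23% to 19.7%) in STAT5 KO. Their median depths were 21563 and 13392.5 UMIs. Among cells with at least 3 UMIs of the erythroid factor Klf1 the numbers were 3 of 31 (9.68%, 2.04% to 25.8%) and 2 of 69 (2.90%, 0.353% to 10.1%). Both shares lay below the 31.3% and 32.9% of members, and the part of such cells in the results was not tested. Between the KLS libraries 290 barcodes were shared, 5 of them control members and 6 of them STAT5 KO members. A further 150 control and 88 STAT5 KO barcodes that passed the gene and mitochondrial limits were also in a stromal library and were left out. With the barcodes of both KLS libraries also left out the difference in share was 1.64 points, and with no barcode left out it was 2.66.

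The label of the cells was read against markers other than Dntt. Flt3 stood at 299 CPM in control members and 106 CPM in the other control KLS cells, and at 240.3 and 82.3 CPM in STAT5 KO. Satb1 stood at 301 against 106 CPM and at 279 against 101 CPM. Ighm stood at 454 against 72.0 CPM and at 338 against 150 CPM. All 3 were higher in members in both libraries. The members and these markers were chosen with earlier results of these data known, so the levels describe the cells and do not test the label. The pan-leukocyte gene Ptprc (CD45) had a UMI in 91.4% of control and 81.2% of STAT5 KO members.

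Of the defining markers of committed lymphocytes and dendritic cells, 3 were seen in few members. Pax5, the B commitment factor, had a UMI in 0.10% of control members and in no STAT5 KO member. Cd3e of the T cell receptor complex had a UMI in 0.10% and 0.0424%, and Siglech of plasmacytoid dendritic cells in 0.300% and 0.170%. Other genes of the B and T lineage lists were seen more often. Cd79b, a chain of the B cell receptor complex, had a UMI in 45.2% of control and 31.3% of STAT5 KO members, and Lck in 47.1% and 33.9%. At 4500 UMIs Cd79b was seen in 14.8% and 12.2% of members, beside 13.7% and 10.3% of the other KLS cells, and Lck in 19.1% and 16.4%, beside 5.76% and 6.37%. Mpo, the myeloperoxidase of granulocyte precursors, had a UMI in 86.4% of control and 93.3% of STAT5 KO members.

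**Figure D2:**
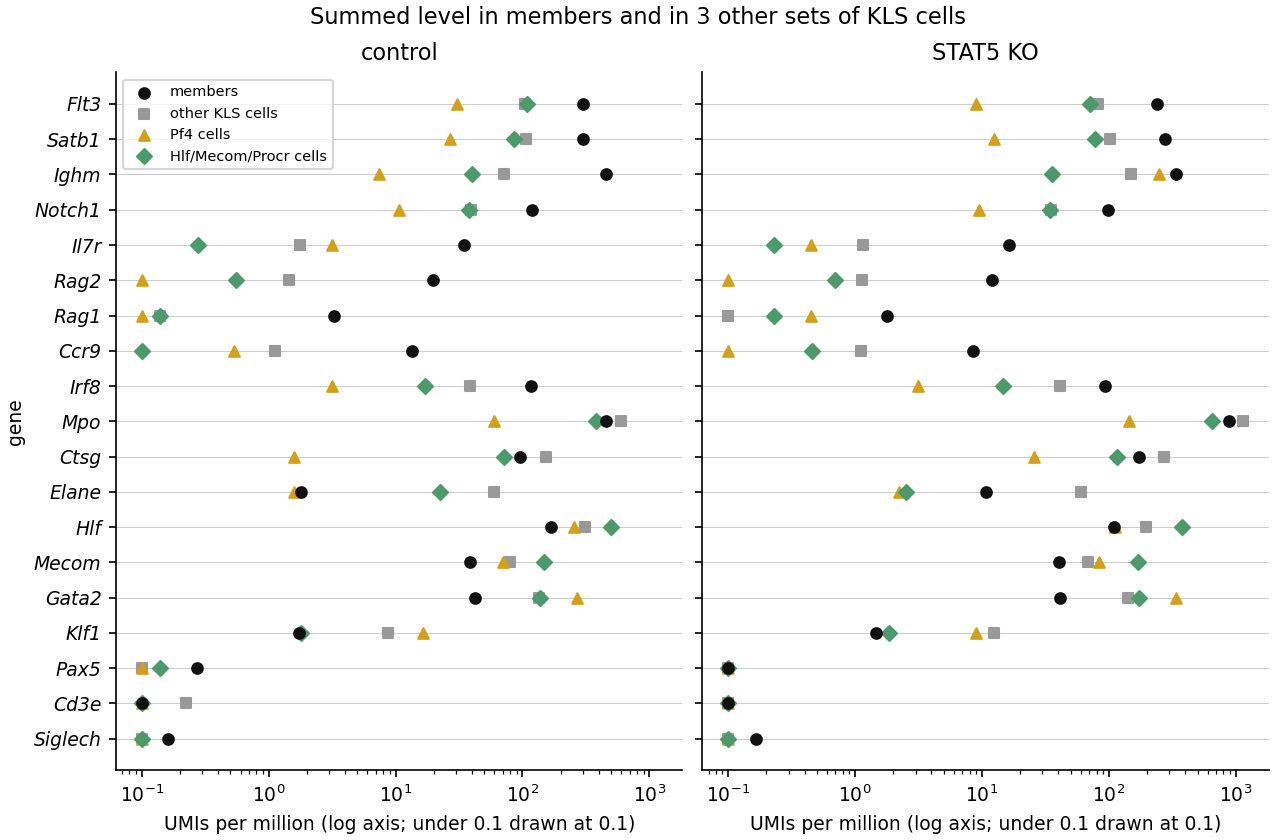
Level in CPM (x axis, log scale, values under 0.1 drawn at 0.1) of 19 genes (y axis) in members, the other KLS cells, Pf4 cells (at least 3 Pf4 and 0 Dntt UMIs) and cells with a UMI of each of Hlf, Mecom and Procr and under 3 Dntt UMIs, in the control (left) and STAT5 KO (right). Members lie farthest right for Flt3, Satb1, Notch1 and Il7r and left of the other sets for Gata2; for Ighm in STAT5 KO they stand at 338 CPM beside 251 CPM in Pf4 cells.

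Beside the other KLS cells, 22 of 11544 genes were at least 2-fold higher in members in both libraries (0.191% of the genes compared) and 35 were at least 2-fold lower (0.303%). In the control alone 43 were higher (0.372%) and 46 lower (0.398%), and in STAT5 KO alone 22 (0.191%) and 55 (0.476%). All genes of these cells count as used once cells are chosen by expression, so these numbers describe the members and test nothing. After Dntt the highest ratios were those of Arpp21, a calcium-signal phosphoprotein gene also on in early lymphoid cells, at 53.3 against 4.31 CPM in the control and 50.004 against 4.41 CPM in STAT5 KO. Il12a, a subunit of interleukin-12, stood at 172 against 44.9 CPM and at 142 against 38.6 CPM. Cmah, which makes a sialic acid form, stood at 30.3 against 1.51 CPM and at 25.3 against 1.72 CPM.

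Receptors and factors of the lymphoid path were among the higher genes. Notch1, the receptor that drives T cell fate, stood at 118 against 39.3 CPM in the control and 98.4 against 35.2 CPM in STAT5 KO. Irf8, a factor of dendritic and B cells, stood at 117 against 38.6 CPM and at 93.2 against 41.4 CPM. Il7r stood at 34.4 against 1.76 CPM and at 16.2 against 1.16 CPM. Rag2 stood at 19.7 against 1.45 CPM and at 11.9 against 1.14 CPM, and passed the 2-fold size with 10 CPM added in the control alone, with log2 ratios of 1.38 and 0.98.

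Among the genes that were lower in members were some of the megakaryocyte, erythroid and stem cell lists. Apoe stood at 41.8 CPM in control members against 241 CPM in the other cells, and at 42.2 against 299 CPM in STAT5 KO. Gata2, a stem and mast cell factor, stood at 42.2 against 134 CPM and at 40.9 against 141 CPM. Of 17 compared megakaryocyte and erythroid genes, 5 were lower at this size and none was higher, with median log2 ratios of -0.86 in the control and -0.90 in STAT5 KO. Of 20 compared stem cell genes 3 were lower, with medians of -0.73 and -0.61. The medians over all compared genes were -0.04 and -0.02.

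The targeted genes come first in the comparison of genotypes. Stat5a (chr11:100859351-100885169, + strand) and Stat5b (chr11:100780731-100850724, - strand) gave 1870 UMIs together in control members and 77 in STAT5 KO members. Their summed level was 101 CPM (96.6 to 106) and 2.54 CPM (2.003 to 3.17), which left 2.51% of the control level (1.97% to 3.15%). A UMI of either gene was seen in 754 of 999 control members and in 47 of 2356 STAT5 KO members. The label therefore held for the members, with 1.99% of STAT5 KO members carrying such a UMI.

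The remnant was larger outside the members. In the other KLS cells the summed level was 143 CPM in the control, and STAT5 KO kept 11.5% of it (10.7% to 12.4%). STAT5 KO kept 24.3% (18.6% to 31.3%) in 101 control and 182 STAT5 KO Pf4 cells. It kept 25.3% (21.2% to 29.9%) in 441 control and 359 STAT5 KO cells with Hlf, Mecom and Procr. The intervals for members and for each of the other sets do not overlap, with 1 library a genotype.

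Between genotypes, 35 of 11545 genes rose in STAT5 KO members (0.303%) and 57 fell (0.494%). In the other KLS cells 41 rose (0.355%) and 59 fell (0.511%), so the numbers were much alike. The median log2 ratio over all compared genes was 0.01 in members. This median and the shares called in members, 0.303% and 0.494%, are the background for each gene list below. Both libraries held cells of both sexes: Xist had a UMI in 42.6% of control and 43.8% of STAT5 KO members, and the Y-linked gene Ddx3y in 42.5% and 33.4%.

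Il7r, at chr15:9505788-9530176 on the - strand, fell in the members. It gave 637 UMIs in 189 control members and 492 UMIs in 221 STAT5 KO members, which is 34.4 CPM (31.8 to 37.2) and 16.2 CPM (14.8 to 17.7). The control level was 2.12 times the STAT5 KO level, a plain log2 ratio of -1.09 (-1.26 to -0.91). With 10 CPM added the ratio was -0.76. In the other KLS cells Il7r was near 0 in both libraries, at 1.76 and 1.16 CPM.

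Fewer STAT5 KO members had an Il7r UMI at matched depth. After thinning to 4500 UMIs, Il7r was detected in 9.82% of 998 control members (8.04% to 11.8%) and in 5.17% of 2244 STAT5 KO members (4.29% to 6.17%), with 1 and 112 members left out. Unthinned shares were 18.9% and 9.38%. In thinned KLS cells outside the members the shares were 0.415% and 0.212%, far under both.

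The other lymphoid receptors and factors mostly lay a little lower in STAT5 KO without being called. Flt3 was at 299 CPM (291 to 307) in the control and 240.3 CPM (235 to 246) in STAT5 KO, a log2 ratio of -0.30, beside -0.32 in the other KLS cells. The shared cytokine chain Il2rg was at 62.0 and 46.1 CPM (-0.36), beside -0.35. Kit was at 159 and 145 CPM. The TSLP receptor chain Crlf2 was at 90.1 and 89.4 CPM. Of 23 compared cytokine receptor genes none rose and 2 fell, Il7r among them, and the list's median was -0.12 beside -0.08 in the other cells.

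Among 26 compared lymphoid transcription factor genes none rose and 1 fell, Nfil3, a factor needed for innate lymphoid cells. It fell from 13.0 to 5.27 CPM with a log2 ratio of -0.59, just past the size, and stood at 3.49 and 2.84 CPM in the other cells (-0.07). Its call was lost without the Pf4 condition (-0.57), without the cells of highest doublet score (-0.55) and without STAT5 KO members that held a Stat5a or Stat5b UMI (-0.57). Of the list, 6 factors lay higher and 20 lower, with a median of -0.11. Satb1 was at 301 and 279 CPM (-0.11). The Ikaros gene Ikzf1 was at 257 and 234 CPM (-0.13), Mef2c at 581 and 583 CPM (0.01), and Tcf3 at 133 and 132 CPM (-0.02). Irf8 was at 117 and 93.2 CPM (-0.30), with 41.4 CPM in STAT5 KO cells outside the members beside 38.6 CPM in the control.

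Of the recombination genes none of 13 compared was called, with a median of -0.01. Rag2, at chr2:101624718-101632529, stood at 19.7 CPM (17.8 to 21.9) in control members and 11.9 CPM (10.7 to 13.2) in STAT5 KO members. Its log2 ratio was -0.44 with 10 CPM added and -0.73 (-0.94 to -0.51) without, so a low level kept it under the called size, and it passed in cells thinned to equal depth (-0.67). Rag1 gave 61 and 54 UMIs, 3.30 and 1.78 CPM. Double-strand break repair genes were close to level, with Xrcc5 at 20.0 and 19.6 CPM and Lig4 at 2.27 and 2.04 CPM.

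No gene of the B lineage list was called among 9 compared, and all 9 lay lower, with a median of -0.21 beside 0.01 over all compared genes. Ighm stood at 454 CPM (444 to 463) in members of the control and 338 CPM (331 to 344) in those of STAT5 KO, a log2 ratio of -0.41. In the control 3 cells held 14.4% of those UMIs, and in STAT5 KO the top 3 held 0.663%. Leaving out every cell with a UMI of a mature lymphocyte gene, 24 control and 47 STAT5 KO members, moved the ratio to -0.21. Blnk, an adaptor of B cell receptor signals, stood at 8.92 and 4.22 CPM (-0.41). Ebf1, a B lineage factor, stood at 4.65 and 0.297 CPM, but 3 cells held 72.1% of its 86 control UMIs.

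T and natural killer cell genes gave a like picture. Trbc1, a T cell receptor constant gene, fell from 14.6 to 1.98 CPM, in 18 control and 18 STAT5 KO members, with 54.8% of the control UMIs in 3 cells. It was the 1 gene called of 13 compared, and the list's median was -0.24. Notch1 stood at 118 (113 to 123) and 98.4 CPM (94.9 to 102), a log2 ratio of -0.24. The Src-family kinase gene Lck stood at 42.6 and 36.5 CPM (-0.18). Among dendritic cell genes Irf7, the interferon regulator, fell from 26.7 to 13.6 CPM (-0.64), and Ly6d fell from 5.79 to 0.560 CPM (-0.58) with 16 control cells carrying it, of 8 genes compared.

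**Figure D3:**
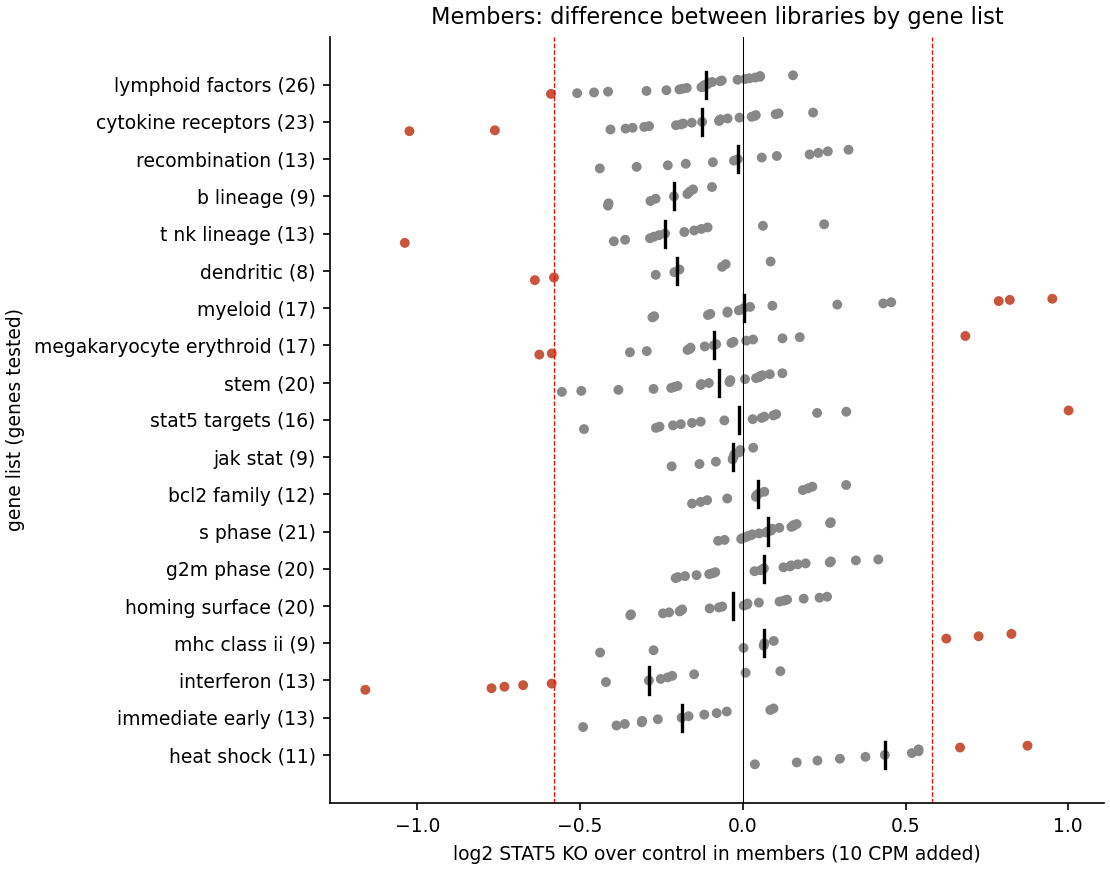
Log2 ratio of STAT5 KO over control in members (x axis, 10 CPM added) for each compared gene of 19 gene lists (y axis, number of genes in brackets), with called genes in red, the list's median as a black bar and dashed lines at the called size. Most points lie between the lines, heat-shock genes lie to the right of 0 (median 0.44) and interferon-response genes mostly to the left (median -0.29).

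Of 17 compared myeloid genes 3 rose in STAT5 KO members and none fell, with 9 higher, 8 lower and a median of 0.00. Over all compared genes 0.303% rose. Mpo, at chr11:87793581-87804413, rose from 455 CPM (445 to 464) to 888 CPM (878 to 899), a log2 ratio of 0.95. It rose as much in the other KLS cells, from 594 to 1141 CPM (0.93). At 4500 UMIs it was detected in 65.7% of control members (62.7% to 68.7%) and 86.4% of STAT5 KO members (84.9% to 87.8%). In Pf4 cells Mpo stood at 59.7 CPM in the control and 143 CPM in STAT5 KO. How much of the Mpo in any of these cells was free RNA was not tested.

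Ctsg, the granule protease cathepsin G, rose from 95.2 to 171 CPM (0.79, and 0.78 in the other cells). Elane, neutrophil elastase, rose from 1.78 to 10.8 CPM, but 3 cells held 69.8% of the STAT5 KO UMIs. With Mpo these were the 3 called, and the myeloid factor Cebpa stood at 40.0 and 40.1 CPM. Prtn3, the granule proteinase 3, was not called at 279.7 and 387 CPM (0.46).

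Of the genes reported as STAT5 targets in other settings, 1 of 16 compared rose and none fell. Ccnd1, which encodes cyclin D1, rose from 25.2 CPM (23.0 to 27.6) to 60.5 CPM (57.7 to 63.3), a log2 ratio of 1.00 in members and 1.00 in the other cells. Cish, a feedback inhibitor of cytokine signals, stood at 8.60 and 3.26 CPM. Its ratio was -0.49, and -1.40 (-1.77 to -1.03) without added CPM. Outside the members Cish fell from 16.4 to 7.47 CPM (-0.59). Socs2 stood at 4.49 and 2.04 CPM (-0.27), while the kinase gene Pim1 stood at 239 and 300.3 CPM (0.32) and Bcl2, the survival gene, at 180.0 and 189 CPM (0.07). The list was evenly divided, with 8 genes higher, 8 lower and a median of -0.01.

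Neither the JAK and STAT genes other than Stat5 nor the Bcl2 family held a called gene. Of 9 JAK and STAT genes the median was -0.03, with Jak1 at 132 and 130.1 CPM, Jak3 at 27.7 and 27.1 CPM and Stat3 at 78.1 and 80.1 CPM. Of 12 compared Bcl2 family genes the median was 0.05, with Mcl1 at 186 and 166 CPM and Bcl2l11, which encodes the death protein BIM, at 33.1 and 29.996 CPM.

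Cell cycle genes lay slightly higher in STAT5 KO members, none by the called size. Of 21 S-phase genes 18 were higher and 3 lower (median 0.08), and of 20 G2 and M phase genes 13 were higher and 7 lower (median 0.06). Mki67, a proliferation marker, stood at 326 and 439 CPM (0.42), beside 0.33 in the other cells. At 4500 UMIs it was detected in 46.2% (43.1% to 49.3%) of control and 57.7% (55.6% to 59.7%) of STAT5 KO members, and in 36.5% and 50.3% of the other cells. The detected share of Mki67 was thus higher in STAT5 KO both inside and outside the members.

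By the naming rule, the largest falls in members were led by genes that fell as much in the other cells. The gene model Gm47283 fell from 606 to 83.0 CPM (-2.73, and -2.78 outside), and Mid1, a ubiquitin ligase gene, fell from 25.8 to 1.91 CPM (-1.59, and -1.55 outside). Hmga2, a chromatin protein of fetal and self-renewing cells, fell from 67.0 to 21.6 CPM (-1.28, and -1.07 outside). It was detected in 24.2% (21.6% to 27.0%) of thinned control members and 7.71% (6.64% to 8.89%) of thinned STAT5 KO members. The cytokine subunit gene Ebi3 fell from 28.7 to 7.78 CPM (-1.12, and -1.24 outside), and Emcn, a surface sialomucin of stem cells and endothelium, from 19.5 to 7.22 CPM (-0.78, and -0.79 outside).

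Wfdc17 and Ifi27l2a fell further in members than outside them. Wfdc17, a secreted protein with a protease-inhibitor fold, fell from 221 to 73.9 CPM (-1.46) in members and from 61.3 to 27.2 CPM (-0.94) in the other cells. Ifi27l2a, an interferon-induced gene, fell from 81.1 to 30.8 CPM (-1.16) in members and from 24.5 to 12.8 CPM (-0.59) in the other cells. Both were higher in control members than in the other control cells. Of 13 compared interferon-response genes 5 fell in members, beside 0.494% of all compared genes: Ifi27l2a, Ifit1, Isg15, Oasl2 and Rtp4. Rtp4 fell from 68.0 to 35.7 CPM and Oasl2 from 47.5 to 26.04 CPM. The list's medians were -0.29 in members and -0.28 outside. Ltb, the lymphotoxin beta gene of lymphoid cells, fell from 54.1 to 28.2 CPM in members and from 78.7 to 36.4 CPM outside.

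The largest rises were likewise shared with the other cells. The helicase gene Dhx40 rose from 8.44 to 32.2 CPM (1.20, and 0.90 outside), the chemokine gene Ccl9 from 70.7 to 152 CPM (1.01, and 1.09 outside), and the chaperone gene Hsph1 from 44.5 to 89.9 CPM (0.87, and 0.96 outside). All 11 heat-shock genes lay higher and 2 of them rose, with a median of 0.44 beside 0.41 outside. Gm42418 and AY036118, gene models that overlap ribosomal RNA sequence, rose from 477 to 1038 CPM and from 12.2 to 32.8 CPM. Of 9 class II antigen presentation genes 3 rose: H2-Eb1 from 13.6 to 31.8 CPM (0.83), H2-Aa from 21.9 to 42.7 CPM (0.72) and H2-Ab1 from 60.5 to 98.7 CPM (0.63), while their invariant chain gene Cd74 stood at 47.1 and 51.0 CPM (0.10). The call of H2-Ab1 was lost in thinned cells (0.54).

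RNA measures of quality also differed between the libraries. The median mitochondrial share of members was 4.35% in the control and 2.90% in STAT5 KO, and mt-Co3 fell from 8359 to 4959 CPM. Immediate-early genes, which respond to handling and signals, lay lower for 11 of 13 compared, with a median of -0.19 and no call. Whether these differences bear on the heat-shock, ribosomal RNA or mitochondrial transcripts was not tested.

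**Figure D4:**
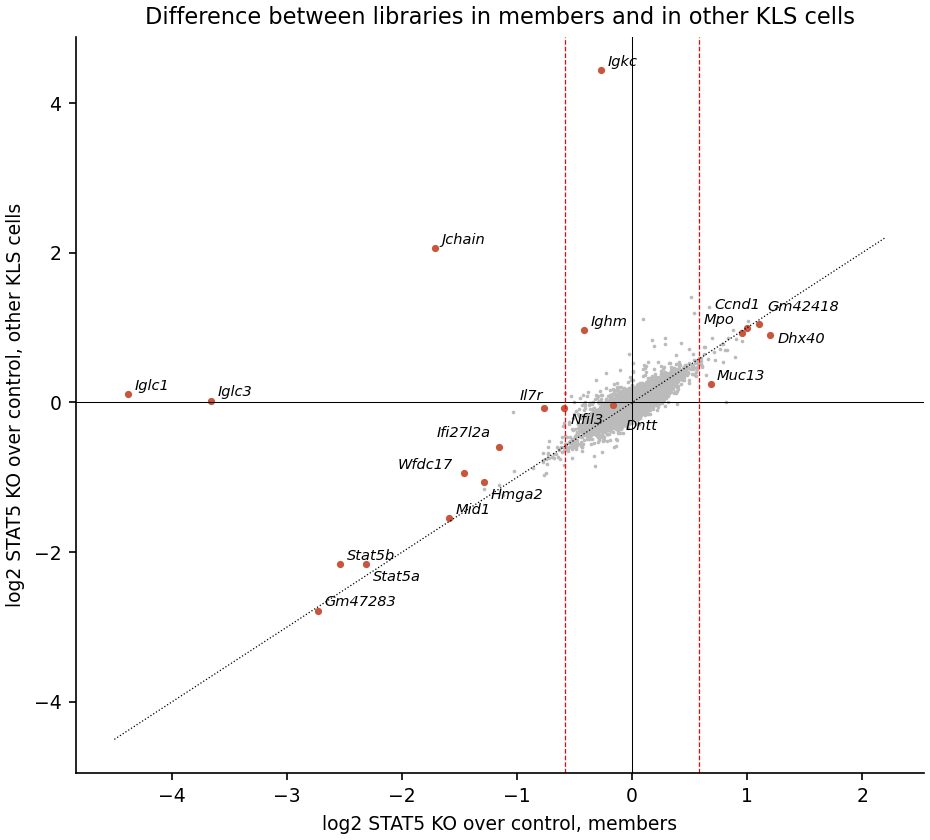
Log2 ratio of STAT5 KO over control (10 CPM added) for each compared gene in members (x axis) and in the other KLS cells (y axis), with equality dotted and the called size in members dashed in red. Mpo, Ccnd1, Hmga2 and Gm47283 lie near the dotted line, Il7r lies at -0.76 and -0.08, Ighm at -0.41 and 0.96, and Stat5a and Stat5b lie further to the left than down. Outside the members Il7r stood under the 10 CPM added, which shrinks its ratio there.

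The difference of the 2 ratios, members minus other cells, passed the called size for 1 gene upward (Elane, 0.00866% of 11545) and 17 genes downward (0.147%). With 1 library a genotype this difference has no test. Il7r was among the falls at -0.69. Outside the members Il7r stood at 1.76 and 1.16 CPM, under the 10 CPM added, which shrinks its ratio there to -0.08. The size of its difference of ratios thus depends on the added CPM. Under the naming rule Ighm led the falls at -1.38. Igkc and Jchain, which lie outside that rule and were named after their values were seen, went further at -4.71 and -3.78. Both rest on few cells: Igkc had a UMI in 0.854% and Jchain in 0.562% of the other STAT5 KO cells. In control members 3 cells held 99.1% of the Jchain UMIs. For Ighm the STAT5 KO cells outside the members stood at 150 CPM with 207 CPM of Igkc, the light chain gene of antibody-making cells, which stood at 0.0280 CPM in the control cells. By the same rule Muc13, a surface mucin, led the rises at 0.44 without passing: it rose from 76.5 to 129 CPM in members (0.68), and stood at 187 and 223 CPM outside (0.24). Batf, a factor of lymphocytes, followed at 0.41, with 19.8 and 29.1 CPM in members and 28.7 and 28.2 CPM outside.

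Within the members, levels of lymphoid transcripts were higher where Dntt was higher. Members were placed in 4 ranges by their Dntt UMIs per 10000 UMIs: under 5 (330 control and 624 STAT5 KO cells), 5 to 10 (217 and 678), 10 to 20 (199 and 588) and 20 or more (253 and 466). Il7r stood at 3.81, 13.6, 22.8 and 115 CPM across these ranges in the control, and at 1.43, 2.92, 15.5 and 63.7 CPM in STAT5 KO. Control lay above STAT5 KO in all 4 ranges, and the intervals overlapped in the third, at 17.9 to 28.7 and 12.7 to 18.8 CPM. STAT5 KO members weighted to the control's spread over the ranges gave an Il7r log2 ratio of -0.65, still called.

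Rag2 followed the same order, at 5.31, 9.08, 24.4 and 50.9 CPM in the control and 3.81, 8.63, 13.3 and 30.3 CPM in STAT5 KO. Counting intervals of the libraries overlapped in the 2 lower ranges and not in the 2 upper ones. Flt3 stood at 215, 309, 331 and 411 CPM in the control and 168, 230.1, 287 and 335 CPM in STAT5 KO, lower in STAT5 KO in all 4. Notch1 rose from 70.8 to 196 CPM between the outer ranges of the control and from 63.8 to 173 CPM in STAT5 KO. Blnk stood at 2.59 CPM in the lowest and 22.4 CPM in the highest range of the control, and at 0.571 and 14.2 CPM in STAT5 KO.

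Stem and myeloid transcripts ran the other way. Hlf stood at 241 CPM in the lowest and 56.8 CPM in the highest Dntt range of the control, and at 149 and 59.9 CPM in STAT5 KO, so the libraries differed in the lowest range and had overlapping intervals in the highest. Mpo stood at 554.5, 468, 400.0 and 309 CPM in the control and at 1176, 845, 722 and 602 CPM in STAT5 KO. The rise of Mpo in STAT5 KO was thus near 2-fold in every range, and STAT5 KO members of the highest range held more Mpo than control members of the lowest. Ctsg fell across the ranges from 132 to 39.2 CPM in the control and from 273 to 61.3 CPM in STAT5 KO. Hmga2 was lower in STAT5 KO in all 4 ranges, at 56.4 to 94.4 CPM in the control and 19.0 to 30.5 CPM in STAT5 KO.

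**Figure D5:**
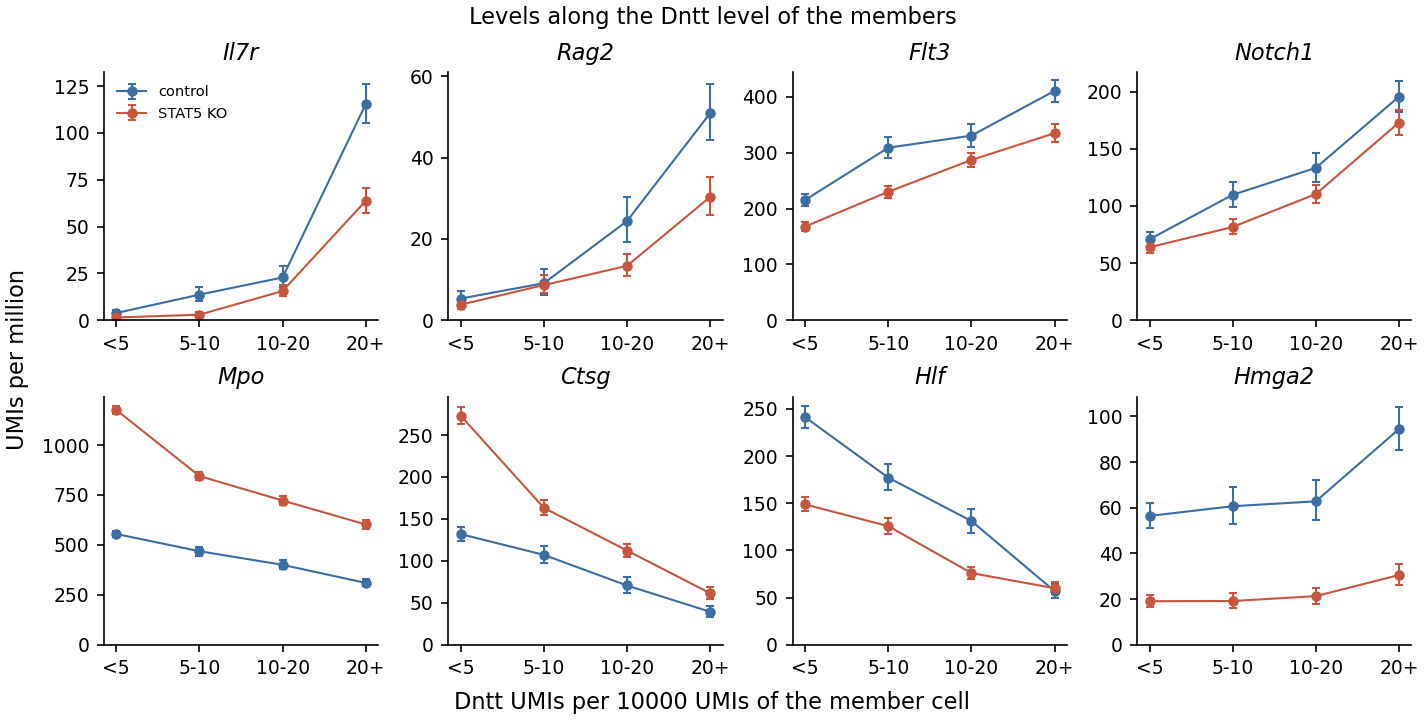
Level in CPM (y axis, from 0) of 8 genes in members of 4 ranges of Dntt UMIs per 10000 UMIs (x axis), for the control and STAT5 KO, with 95% Poisson intervals for counting error. Il7r, Rag2, Flt3 and Notch1 climb and Mpo, Ctsg and Hlf decline with Dntt in both libraries; Mpo lies higher and Il7r and Hmga2 lower in STAT5 KO in each range.

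When each library's members were cut into 3 equal parts by Dntt per UMI, 78 of 11544 genes were at least 1.5-fold higher in the highest part than in the lowest in both libraries (0.676%) and 64 were lower (0.554%). Since Dntt took part in the rule, these are a description. Il7r led the higher genes, at 92.6 against 3.78 CPM in the control and 46.7 against 1.22 CPM in STAT5 KO. Arpp21 stood at 124 against 10.1 CPM and 108 against 15.5 CPM, and Cmah at 79.4 against 4.32 CPM and 61.3 against 5.59 CPM. Cox6a2, a cytochrome oxidase subunit found in plasmacytoid dendritic cells, stood at 67.0 against 5.40 CPM and 47.3 against 5.67 CPM. Apoe led the lower genes, at 6.36 against 82.0 CPM and 12.2 against 67.2 CPM, followed by the tetraspanin gene Cd63, at 30.5 against 118 CPM and 26.3 against 93.5 CPM.

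Single cells carried these transcripts together. Among thinned control members, Rag2 was seen in 24 of 98 cells with an Il7r UMI (24.5%, 16.4% to 34.2%) and in 6.11% of 900 without one (4.64% to 7.88%). In STAT5 KO it was seen in 20 of 116 (17.2%, 10.9% to 25.4%) and in 4.37% of 2128 (3.54% to 5.33%). Il7r was rarer in members with an Hlf UMI, at 3.73% (2.06% to 6.19%) against 13.5% (10.9% to 16.4%) of those without in the control, and 2.16% (1.22% to 3.55%) against 6.51% (5.34% to 7.86%) in STAT5 KO. It was more frequent in members with an Mki67 UMI, at 13.9% against 6.33% in the control and 6.65% against 3.16% in STAT5 KO.

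Lymphoid and myeloid transcripts were not exclusive. Mpo was detected in 58.2% (47.8% to 68.1%) of control members with an Il7r UMI and 66.6% (63.4% to 69.6%) of those without, and in 80.2% (71.7% to 87.0%) and 86.7% (85.2% to 88.1%) in STAT5 KO. Members with an Irf8 UMI held Mpo more often, at 76.2% (71.1% to 80.7%) against 60.7% (56.9% to 64.4%) in the control and 91.4% (88.9% to 93.5%) against 84.5% (82.7% to 86.2%) in STAT5 KO. These shares are over cells of 1 library each and include free RNA, whose part was not tested.

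Genes for homing and adhesion changed little between genotypes, with no call among 20 and a median of -0.03. Ccr9, the thymus-homing chemokine receptor, stood at 13.5 CPM (11.9 to 15.3) in members of the control and 8.54 CPM (7.53 to 9.64) in those of STAT5 KO, a log2 ratio of -0.34, and at 1.12 CPM in the other cells of either library. Cxcr4, the marrow-retention receptor, stood at 101 and 116 CPM (0.19), Cd34 at 615 and 517 CPM (-0.25), and Cd27 at 243 and 212 CPM (-0.19).

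Markers of other cell types gave sums in members that differed widely among the types. Over 8 stromal genes the summed level of members was 0.865 CPM for the control and 0.593 CPM for STAT5 KO, with 4 of the 8 at 0 in each. Over 7 mature T cell genes it was 3.57 and 1.05 CPM, over 6 mature B cell genes 44.6 and 35.8 CPM, and over 4 plasma cell genes 101 and 68.1 CPM. The other KLS cells gave 2.40 and 1.04 CPM, 32.6 and 25.9 CPM, and 64.7 and 99.99 CPM for these lists. Mature B cell sums were thus higher in members in both libraries, and plasma cell sums in the control alone. Over 5 mast and basophil genes the members' sums were 26.9 and 29.9 CPM, beside 99.3 and 151 CPM in the other KLS cells. Mature lymphoid sums were thus higher in control than in STAT5 KO members, beside the lower T and B lineage values in STAT5 KO. Without cells holding a mature lymphocyte UMI the B lineage median moved from -0.21 to -0.17. The T and natural killer median moved from -0.24 to -0.17, and Ighm as given above. The part of such cells in those values was not tested further.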

How the data were processed

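Single-cell 3' libraries (10x, v3 chemistry per the labels' protocols) were made from KLS cells and from stromal cells of each genotype. The authors deposited raw UMI counts per gene and barcode, made with Cell Ranger 3.1.0 per the file headers, on GRCm38 (mm10) per the submitters' processing notes. Whether counting used strand, and how barcodes were filtered, is not given in the sources used here, so overlapping and antisense genes cannot be told apart. The KLS libraries held 55138419 (control) and 82466835 (STAT5 KO) UMIs in 3747 and 7511 barcodes.

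The filters, the member rule and the size of a called difference are as given in the report. Counts were summed over cells, scaled to CPM over all genes, and compared as log2 ratios with 10 CPM added. A gene needed 50 UMIs over the members of both libraries. With 1 library per genotype there was no test and no gene-wise model. Intervals are exact Poisson, Clopper-Pearson, conditional binomial or Newcombe intervals. Named genes are the 12 largest rises and falls of each comparison among genes with a UMI in at least 5% of cells of the higher group, without Dntt, Pf4, Stat5a, Stat5b, Xist, Y-linked and hemoglobin genes. Members of the gene lists and the rule's markers may also be named. Elane, Igkc, Jchain, mt-Co3 and Ltb were named after their values were seen. Some genes of the lists are not reported here. The members and lists were chosen with earlier results of these data known. No cell was left out as a doublet. An alternative left out the highest Scrublet doublet scores, which took 4.80% of control and 8.23% of STAT5 KO members. Of the other KLS cells it took fewer, 2.60% in the control and 5.00% in STAT5 KO.

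The comparison of STAT5 KO with control members was tested on simulated data for 11603 genes: of genes changed 2-fold, 30 of 50 rises and 27 of 48 falls were called, with 12 of 12 and 12 of 12 at 50 CPM or more. At 1.5-fold 2 of 50 and 1 of 49 were called. Of 11406 unchanged genes 0 were called. The simulated counts were Poisson draws from the control members' proportions, with no spread between mice, sorts or libraries. They check the arithmetic and give no error rate for real libraries. Gene positions are from the reference annotation of GRCm38. Alternatives changed the cell filters, thresholds, depth, scaling (TMM by edgeR), pseudocount and UMI minimum. Leaving out cells with mature lymphocyte UMIs, weighting to the control's Dntt ranges, and the 4 Dntt ranges were chosen after seeing the data. Analyses used Python 3.11.15, numpy 2.4.6, scipy 1.17.1, pandas 2.3.3, matplotlib 3.10.9, scanpy 1.11.5, R 4.3.3 and edgeR 4.0.16.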

Additional observations from a re-analysis of the deposited data

Results flagged for a closer look

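The summed level of Ighm differed between genotypes in opposite directions inside and outside the Dntt members. It was lower in STAT5 KO in members, at 454 and 338 CPM, and higher in the other KLS cells, at 72.0 and 150 CPM, a difference of log2 ratios of -1.38. The share of other KLS cells with an Ighm UMI was 33.9% in the control and 31.5% in STAT5 KO. In control members 3 cells held 14.4% of the Ighm UMIs. Without cells holding a mature lymphocyte UMI the ratio in members was -0.21. Clu, which encodes clusterin, stood at 5.08 and 4.78 CPM in members and at 3.52 and 11.2 CPM in the other cells, a difference of -0.68. Neither difference was tested, since each genotype is 1 library.

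Dntt UMIs also appeared in the stromal libraries, which no comparison used. The control stromal library held 10 Dntt UMIs in 6 cells, 5.34 CPM (2.56 to 9.81, Poisson), none of them in barcodes shared with a KLS library and none in a cell with 3 or more. The STAT5 KO stromal library held 2 Dntt UMIs, 1.57 CPM. Ighm gave 817 and 75 UMIs there.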

How the results depend on the processing

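No paired analysis was possible because each genotype is 1 KLS library with no replicate number, and no library could be left out for the same reason. Over the 8 main values and counts, 109 of 129 alternatives kept the direction and stayed near the reported value, 18 moved it and 2 reversed it. The difference in member share turned to -0.52 points at 5% mitochondrial UMIs and -0.53 at 5 Dntt UMIs, and was 3.65 at 2 Dntt UMIs. The log2 ratio of Stat5a and Stat5b became -5.82 without the highest Scrublet scores. With a pseudocount of 1 CPM the genes higher and lower in STAT5 KO members numbered 140 and 350, those higher and lower in members than other cells 103 and 161, and those with a higher and lower difference of ratios 54 and 103. With thinned cells 62 genes were higher in STAT5 KO members and 18 had a higher difference of ratios. With totals that leave out ribosomal and mitochondrial genes the lower counts became 93, 53 and 27. The single higher difference of ratios became 2 at 5% mitochondrial UMIs, with no barcode left out and without the Pf4 condition. The 17 lower ones became 11 at a UMI minimum of 200 and 11 without cells holding mature lymphocyte UMIs. The causes were not tested. Of 1149 alternatives for 63 named values, 1138 kept the call, 4 lost it, 7 gained it and 0 reversed. Cish gained it in thinned cells (-0.62) and with the reduced totals (-0.63). Il7r kept its call throughout, from -1.04 with a pseudocount of 1 CPM to -0.65. Of 304 alternatives for the 19 list medians 10 moved them. The UMI minimum of 20 was not run for list medians. The 10 CPM added to both levels limits low genes: a 2-fold change under 50 CPM often missed the called size. In the simulated data 2-fold rises had a median log2 ratio of 0.73, beside 1.00 without the added CPM. The 2-fold falls had -0.63, beside -1.01.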

Other observations

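Several genes of the naming rule that mark the members beside other KLS cells hardly differed between genotypes. Ncf1, a subunit of the phagocyte oxidase, stood at 81.3 CPM in the control members and 80.9 CPM in those of STAT5 KO, beside 26.2 CPM in the other cells of either library. Ddx4, a helicase gene known from germ cells, stood at 37.5 and 34.7 CPM, beside 8.89 and 6.89 CPM. Cd69, an early activation antigen, stood at 157 and 179 CPM, beside 49.9 and 63.4 CPM. Cnn3, an actin-binding protein gene, stood further apart, at 81.3 and 54.1 CPM (-0.51), and at 15.5 and 12.2 CPM outside.

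Ccl3, an inflammatory chemokine gene, stood at 175 and 176 CPM in members and at 61.7 and 93.8 CPM in the other cells, a difference of log2 ratios of -0.52. Mt1, a metallothionein gene, stood at 6.54 and 13.6 CPM in members and at 25.7 and 84.8 CPM outside, a difference of -0.90. Car2, a carbonic anhydrase gene, fell from 359 to 229 CPM in members and from 708 to 414 CPM outside.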
